A study of Xenopus laevis with 3 samples.

Results

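Nuclear genes that build and run the mitochondrion were examined in the inner ear of larval Xenopus laevis, the African clawed frog. The set comprises the proteins of the mitochondrial ribosome, the translocases that import proteins, the carriers of the SLC25 family, and the factors of mitochondrial DNA upkeep, membrane fusion and matrix proteolysis. Members were chosen by gene symbol alone, from frog probe sets that the platform annotation gives a single symbol, with the suffixes of the duplicated copies (.L and .S, or -a and -b) removed. This gave 98 genes on 151 probe sets, out of 9244 genes on 15495 probe sets with a single symbol. The value of a gene is that of its probe set with the highest mean over the 3 arrays. In RefSeq assembly v10.1, 145 genes carry a symbol of this kind, and 47 of them had no such probe set and are not reported here.

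Mitochondria keep a small genome that encodes a few subunits of the respiratory chain, and all proteins of the ribosome that translates them are encoded in the nucleus. These proteins, like nearly all others of the organelle, are made in the cytosol and enter through the TOM complex of the outer membrane and the TIM complexes of the inner membrane. Carriers of the SLC25 family then move nucleotides, phosphate, amino acids and cofactors across the inner membrane. Hair cells and the ion-transporting epithelia of the ear depend on mitochondrial ATP, and inherited defects of several of these genes cause hearing loss in humans.

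Inner ear RNA was pooled from larvae of stages 56 to 58, aged 38 to 44 days after fertilization, and each of 3 pools was hybridized to 1 GeneChip array as a biological replicate of a single condition. The labels give 10, 7 and 8 larvae for replicates 1, 2 and 3, and no strain or treatment. Because each array stands for a pool, the spread between arrays is that between pools and not between animals. The deposited GCRMA values are log2 intensities, and the median of the 32475 frog probe sets was 7.51, 7.52 and 7.55 in replicates 1, 2 and 3, with a Pearson's r between arrays of 0.994 to 0.996. Of 18 inner ear markers, 9 had a probe set with a single symbol. All 9 had a mean of 4 or higher, from 9.45 to 15.02, among them otos and otoa, beside 79.9% of all genes with a single symbol. For markers of other tissues, 11 of 11 skeletal muscle genes and 4 of 4 cartilage genes were above 4 in limma's test described below. The same held for 2 of 3 pigment cell genes and 7 of 10 red cell genes. The test called 78.6% of all genes with a single symbol, so these counts alone do not show which tissues the pools held. The other 3 red cell genes, gata1, rhag and hba1, had a mean of 4 or higher through replicate 3 alone. The pigment cell regulator mitf was not detected, at 2.10. The 7 red cell genes called had a median difference of 0.04 between replicate 3 and the mean of the other arrays, higher for 4 and lower for 3. The difference was uneven, from -0.33 for hbe1 to 1.08 for slc4a1 and 2.21 for hbg1. Over all 10 red cell genes, with the 3 not called included, its median was 0.61. The muscle markers were lower in replicate 3, as described below with slc25a4.

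Nearly all of the mitochondrial genes were detected in the larval inner ear. At the study's expression criterion, a mean GCRMA value of 4 or higher, 93 of the 98 genes were detected (94.9%), beside 79.9% of all 9244 genes with a single symbol counted in the same way. The highest of several probe sets is more likely to pass than a single one, so genes with only 1 probe set were also counted. Of these, 58 of 62 members were detected (93.5%), beside 3937 of 5311 such genes on the array (74.1%). By probe set, 137 of 151 members reached 4 (90.7%), beside 64.8% of all frog probe sets and 73.2% of those with a single symbol. The 5 genes that were not detected were polg and the carriers slc25a22l, slc25a36, slc25a40 and slc25a42.

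The median gene value was 10.46 for the members and 9.60 for all genes with a single symbol, and the central range of the members, from the lower to the upper quartile, ran from 8.83 to 11.21 against 5.82 to 11.42. In limma's moderated one-sided test of a mean above 4, adjusted over all frog probe sets, 92 of the 98 genes had an adjusted p under 0.05, beside 78.6% of all genes. The test called 136 of the 151 member probe sets, beside 63.1% of frog probe sets and 11118 of the 15495 with a single symbol. Probe sets differ in how well they hybridize, so a value is read here against the criterion of 4 and against the same probe set on the other arrays, and a higher value for 1 gene than for another does not show more transcript.

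**Figure D1:**
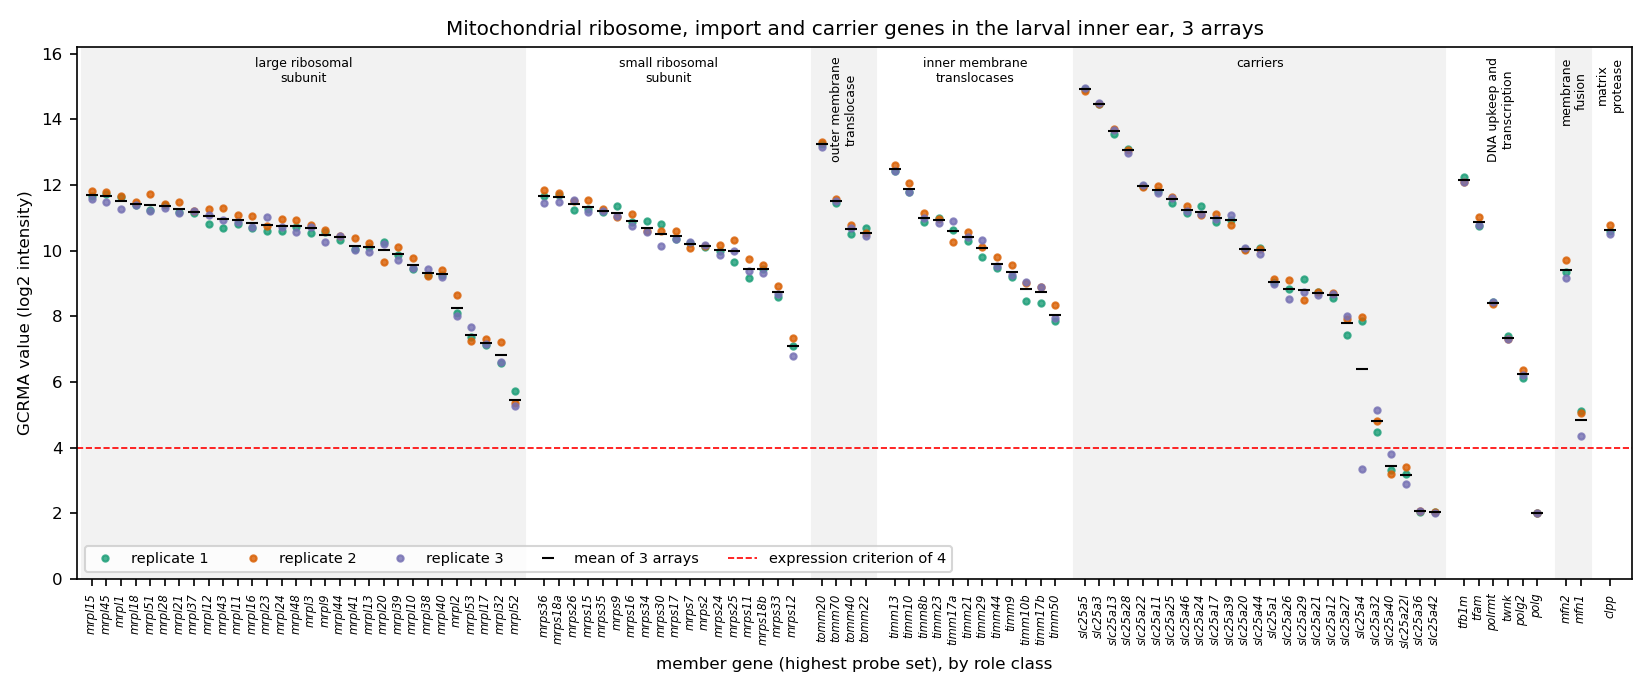
GCRMA value (log2 intensity, vertical axis) of each of the 98 member genes by role class (horizontal axis), with a dot for each of the 3 arrays, a black dash for their mean and a dashed line at the expression criterion of 4. All ribosomal and translocase genes lie above the line on every array, while 4 carriers and polg lie below it and slc25a4 has 2 arrays above and 1 below.

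All 30 genes of the large ribosomal subunit were detected, beside 79.9% of all genes with a single symbol. The probe set of mrpl15 had 11.66, 11.83 and 11.57 in replicates 1, 2 and 3, and that of mrpl45, whose product lies at the inner membrane side of the ribosome, had 11.71, 11.77 and 11.48. For mrpl1 the values were 11.63, 11.67 and 11.26. The arrays lay close together for each of these genes, with SDs of 0.13, 0.15 and 0.22. The lowest values in the class were those of mrpl52, with 5.73, 5.36 and 5.28 (mean 5.46 ± 0.24, SD, n = 3), and mrpl32, with 6.59, 7.22 and 6.62 (6.81 ± 0.36). The maturation of MRPL32 by a protease of the inner membrane is a step of ribosome assembly in mammals. A value of 7.19 ± 0.10 was measured for mrpl17, whose product lies near the exit of the peptide tunnel. The only probe set of mrpl17 ends in _x_at, a type that can bind several transcripts. All 3 genes were nevertheless above 4 on every array, and mrpl52 had an adjusted p of 0.0011 in limma's test. For mrpl3, mutated in humans with a cardiomyopathy, the value was 10.68 ± 0.13. The other 21 genes of the subunit, apart from mrpl2 and mrpl41 described below, had means of 7.43 to 11.42 with a median of 10.76.

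All 18 genes of the small ribosomal subunit class were detected as well, beside the same 79.9% of all genes. The highest means were those of mrps36 (11.67, 11.84 and 11.45), mrps18a (11.70, 11.76 and 11.48) and mrps26 (11.23, 11.50 and 11.53). The names are historical, because in mammals the product of MRPS36 is now known as a subunit of the oxoglutarate dehydrogenase complex, and those of MRPS18A and MRPS30 are placed in the large subunit. The lowest means were those of mrps12, a core protein of the decoding centre, with 7.11, 7.35 and 6.79, mrps33 with 8.58, 8.93 and 8.69, and mrps18b with 9.44, 9.56 and 9.31. None of the arrays came near the criterion for these genes. MRPS2 is mutated in a human disorder that includes hearing loss. The highest of its 3 frog probe sets, annotated as mrps2.L and ending in _x_at, had 10.12, 10.14 and 10.16 (10.14 ± 0.02). This was the smallest SD among the gene values of all ribosomal and translocase genes. The other mrps2.L probe set had an SD of 0.05 and the mrps2.S probe set an SD of 0.08. The remaining 10 genes, without mrps25, had means of 9.44 to 11.33. In limma's test all 48 genes of both subunits were above 4, and the largest adjusted p among them was the one given for mrpl52. The test called 78.6% of all genes with a single symbol.

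The translocases were detected without exception, with 4 of 4 genes of the outer membrane and 12 of 12 of the inner membrane and intermembrane space. Over all genes with a single symbol the share detected was 79.9%. Among the outer membrane genes, tomm20, a receptor for cleavable targeting signals, had 13.25, 13.30 and 13.17 (13.24 ± 0.07, SD, n = 3). Its partner tomm22, the central receptor, had 10.68, 10.53 and 10.45 (10.55 ± 0.12). For tomm40, the channel itself, the values were 10.51, 10.77 and 10.68 (10.66 ± 0.13), and for tomm70, a receptor for carrier precursors, they were 11.46, 11.56 and 11.51 (11.51 ± 0.05). The 4 receptor and channel genes were thus far above the criterion on every array.

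Small chaperones guide carriers and other membrane proteins through the intermembrane space. Among their genes, timm13 had 12.42, 12.60 and 12.43, timm10 had 11.79, 12.04 and 11.79, and timm8b had 10.87, 11.14 and 11.01. TIMM8A, the related gene whose loss causes the human deafness-dystonia syndrome, had no probe set of its own here, although RefSeq lists timm8a among the synonyms of timm8b.L. The lowest means were those of timm50, the receptor that takes precursors from the outer membrane, with 7.85, 8.34 and 7.94 (8.04 ± 0.26), and timm17b, a channel subunit, with 8.41, 8.89 and 8.88 (8.73 ± 0.27). They were followed by timm10b, a small protein of the carrier translocase, with a mean of 8.85 ± 0.32 and a highest array of 9.06. Replicate 1 was the lowest array for each of these 6 genes, equal to replicate 3 for timm10. The other 6 genes of the class, which include the small chaperone gene timm9 at 9.35, the channel gene timm23 and timm44, the tether of the import motor, had means of 9.35 to 10.93. All 16 translocase genes were above 4 in limma's test, beside 78.6% of all genes with a single symbol.

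The carriers were the class with the widest spread, and 21 of 25 were detected (84%). This share was near the 79.9% of all genes with a single symbol and the 83.3% of the DNA upkeep class. At the upper end, slc25a5, an ADP/ATP exchanger, had 14.91, 14.87 and 14.95 (14.91 ± 0.04, SD, n = 3), and slc25a3, the phosphate carrier, had 14.46, 14.45 and 14.51 (14.47 ± 0.03). The aspartate-glutamate carrier slc25a13 followed with 13.55, 13.69 and 13.69 (13.64 ± 0.08). Its other probe set, annotated as the same copy, had a mean of 8.86. For slc25a20, which exchanges carnitine esters, the values were 10.06, 10.03 and 10.08. The disease gene slc25a46, which encodes an outer membrane protein of mitochondrial dynamics that is mutated in optic atrophy with neuropathy, had 11.16, 11.36 and 11.21. The other aspartate-glutamate carrier, slc25a12, chosen as the relative of slc25a13 after its values were seen, had 8.56, 8.72 and 8.70 (8.66 ± 0.08). These genes varied little between the pools.

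At the lower end lay slc25a42, a carrier of coenzyme A, with 2.03, 2.04 and 2.03, and slc25a36, a carrier of pyrimidine nucleotides, with 2.06, 2.08 and 2.06 on its .S probe set and a mean of 1.85 on its .L probe set. Both were near the lowest values of the arrays, where the smallest frog value was 1.62. The probe set slc25a22l.S, annotated as like the glutamate carrier gene slc25a22, had 3.20, 3.43 and 2.88, and slc25a22 itself was detected at 11.97 ± 0.02. For slc25a40, related to the glutathione carrier slc25a39, the values were 3.32, 3.20 and 3.79, and slc25a39 was detected at 10.92, 10.79 and 11.07. The member nearest to the criterion among the detected carriers was slc25a32, a transporter of folate or flavin cofactors, at 4.49, 4.83 and 5.14 (4.82 ± 0.32, adjusted p = 0.00895 in limma's test). The 15 carriers not named by the rule given under the processing had means of 4.82 to 13.05, and slc25a17, one of them, is a carrier of peroxisomes in mammals and not of mitochondria. The carriers of the red cell, slc25a37 and slc25a38, had no probe set with a single symbol.

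One carrier differed sharply between the pools. The ADP/ATP exchanger slc25a4, whose mammalian orthologue is the form of heart and skeletal muscle, had 7.86 in replicate 1, 7.98 in replicate 2 and 3.34 in replicate 3 (mean 6.39 ± 2.64, SD, n = 3). It was detected on the first 2 arrays and fell below the criterion on the other, a difference of -4.57 from the mean of the first 2. In limma's test its adjusted p was 0.0824, so it was the only detected member that the test did not call. The same test gave an adjusted p of 0.221 without replicate 1 and 0.253 without replicate 2. Without replicate 3 its mean was 7.92 (adjusted p = 0.000148), which follows from leaving out the 1 low array and adds no support. Only 7 of the 32475 frog probe sets were lower in replicate 3 than on each other array by more than 4, and slc25a4 was the only member among them. For the other detected member probe sets, the corresponding difference of replicate 3 ran from -1.25, for slc25a28.S, to 0.85, for a probe set of slc25a25.

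Skeletal muscle markers were also lower in replicate 3. Of 11 marker genes 10 were lowest on that array, with a median difference of -1.52 and a range of -2.58 to -0.05, the exception being the calcium pump gene atp2a1. The fast troponin gene tnnc2 had 11.02, 11.10 and 8.48, and the muscle creatine kinase gene ckm had 12.74, 12.87 and 11.32. The summed level of the list was 15.02, 15.03 and 13.76 on the log2 scale, and none of its markers was below the criterion in replicate 3. The ubiquitous exchanger slc25a5 and the phosphate carrier slc25a3 did not share the drop. Whether the muscle content of the pools played a part in the slc25a4 values was not tested, and in pooled tissue fewer cells of a type and less RNA per cell cannot be told apart.

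**Figure D2:**
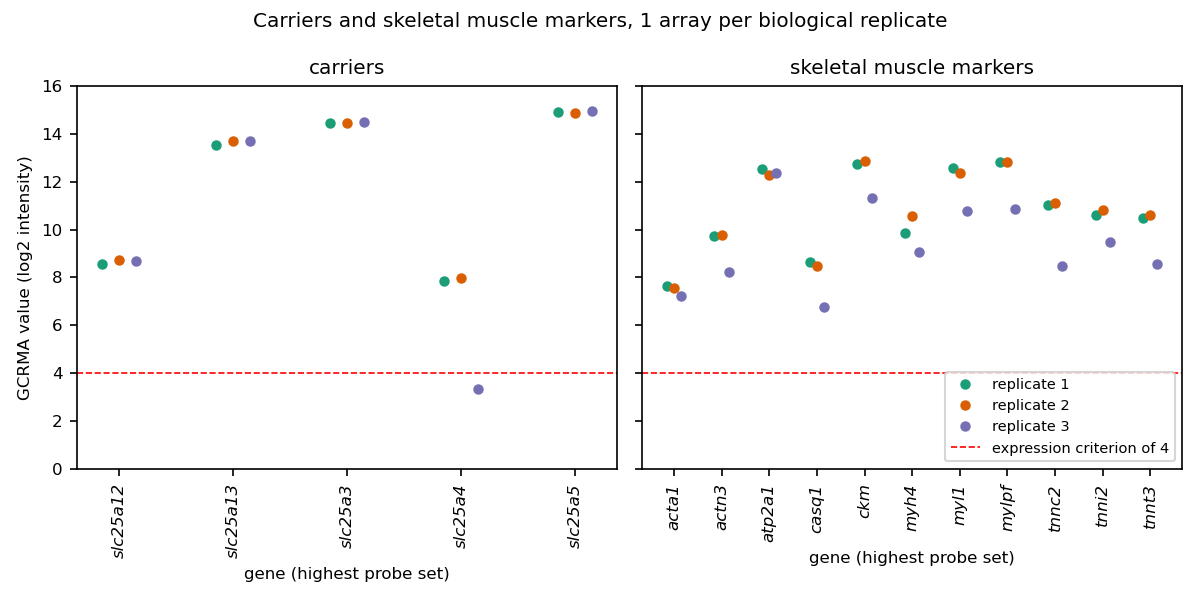
GCRMA value (log2 intensity, vertical axis) of 5 carriers (left) and 11 skeletal muscle markers (right), with a dot for each array and a dashed line at the expression criterion of 4. In replicate 3 slc25a4 lies at 3.34, below the line, while slc25a5 stays between 14.87 and 14.95 and 10 of the 11 muscle markers have their lowest value.

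Factors of mitochondrial DNA upkeep and transcription were detected for 5 of 6 genes (83.3%), beside 79.9% of all genes with a single symbol. TFAM packages the genome and starts its transcription, and tfam had 10.76, 11.01 and 10.79 (10.86 ± 0.14, SD, n = 3). The RNA polymerase gene polrmt had 8.44, 8.37 and 8.43 (8.41 ± 0.04), and twnk, the replicative helicase mutated in a syndrome of ovarian failure and deafness, had 7.39, 7.31 and 7.32 (7.34 ± 0.04). The polymerase's accessory subunit polg2 was detected at 6.13, 6.36 and 6.23 (6.24 ± 0.11). Its catalytic subunit polg was not, as its only probe set, polg.L, had a mean of 2.01 ± 0.01 and no array above 2.02. This value holds for that probe set and does not show that the gene is silent.

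TFB1M, which methylates the RNA of the small ribosomal subunit and has been linked to the severity of a maternally inherited deafness, was measured by 6 probe sets annotated as tfb1m.L. The highest had 12.25, 12.10 and 12.10, 4 others had means of 8.12 to 9.42, and 1 was at 2.10. The name of the highest ends in _x_at, a type that can bind several transcripts. Without probe sets that end in _s_at or _x_at the highest mean was 9.36. A pair of these probe sets was lower in replicate 2, with 8.73, 7.24 and 8.40 on one and 10.12, 8.79 and 9.36 on the other, while the other detected ones differed there by -0.08 to 0.25. The fusion gene mfn2 of the outer membrane, mutated in an axonal neuropathy, had 9.34, 9.71 and 9.17 (9.41 ± 0.28), and its relative mfn1 had 5.13, 5.07 and 4.36 (4.86 ± 0.43, adjusted p = 0.0142). The matrix protease gene clpp, another gene of the syndrome of ovarian failure and deafness, had 10.61, 10.78 and 10.50 (10.63 ± 0.14). The genes opa1, lonp1 and tfb2m had no probe set with a single symbol.

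X. laevis is an allotetraploid, and many genes persist as .L and .S copies. Probe sets for both copies were present for 19 member genes, of which 16 had both copies detected, 1, slc25a36, had neither, and 2 had copies on opposite sides of 4 (10.5%, beside 14% of all 2009 genes with both copies on the array). For mrpl41 the .L probe set had 10.05, 10.40 and 10.02, while the .S probe set had 1.86, 1.87 and 1.85. For mfn1 the .L probe set was above 4 on every array, and the .S probe set had 4.16, 3.39 and 2.31, above 4 in replicate 1 alone. The arrays of the copies did not overlap for either gene, but both genes were picked for copy means on opposite sides of 4. Among the 19 pairs the arrays of the copies overlapped only for slc25a44 and timm17a. The lack of overlap therefore does not set mrpl41 or mfn1 apart. How often the arrays of copies overlap over all genes with both copies on the array was not counted. Other pairs of detected copies had unlike values, such as timm29 with means of 10.08 (.L) and 4.75 (.S) and mrpl11 with 10.93 and 6.22. Values of different probe sets do not measure the ratio of the copies.

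**Figure D3:**
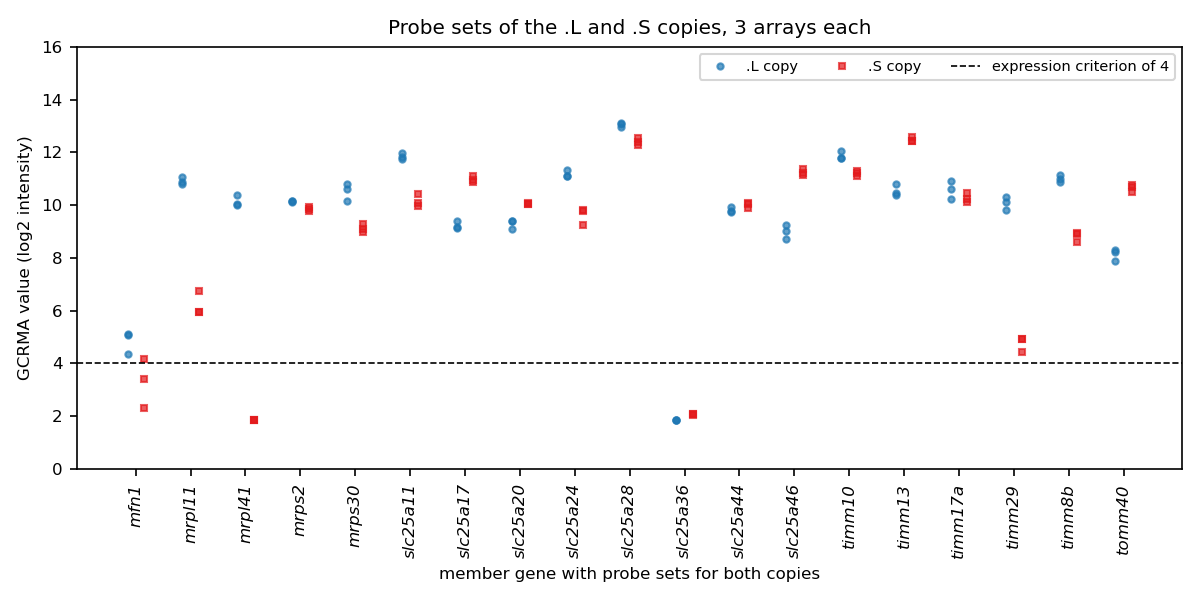
GCRMA value (log2 intensity, vertical axis) of the 19 member genes with probe sets for both copies (horizontal axis), with blue circles for the .L copy, red squares for the .S copy, 3 arrays each, and a dashed line at the expression criterion of 4. Only mrpl41 and mfn1 have copy means on opposite sides of the line, and both copies of slc25a36 lie below it.

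Counting all probe sets of a gene, 7 of the 36 member genes with several had some above and some below 4 (19.4%, beside 31.2% of all such genes). These were mrpl41, mfn1, tfb1m, mrps16, slc25a1, slc25a3 and slc25a32, of which mrps16 and slc25a1 are named because of this pattern. For the phosphate carrier slc25a3 the probe sets had means of 14.47, 2.73 and 2.34, although all 3 are annotated as the same copy. The citrate carrier slc25a1 had 9.06 on the .L probe set and 2.35 on the probe set named slc25a1-b, and mrps16 had 10.90 and 2.40. Detection of these genes rests on the probe set chosen.

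Among the genes with the largest SD between arrays, after slc25a4 and mfn1, were 3 ribosomal protein genes. For mrpl32 replicate 2 was higher than the others by 0.62, and mrpl2, a protein of the peptidyl transferase centre, had 8.10, 8.66 and 8.00. Values of mrps25 were 9.64, 10.34 and 10.00. All 3 were highest in replicate 2, but the next genes by SD were not. For mrps30 (SD 0.337) the values were 10.81, 10.61 and 10.15, with replicate 1 highest. Both mrpl20 (SD 0.336), with 10.25, 9.64 and 10.20, and timm17a (SD 0.328), with 10.63, 10.25 and 10.90, were lowest in replicate 2. Of the 137 detected member probe sets, 85 were highest in replicate 2 (62.0%), 26 in replicate 1 and 24 in replicate 3, with 2 ties. Among all detected frog probe sets 36.5% were highest in replicate 2, and among those with a single symbol 39.8%. The median difference between replicate 2 and the mean of the other arrays was 0.17 for the members and 0.01 for all detected frog probe sets. It was 0.02 for the 7099 detected frog probe sets whose means lay within the central range of the member probe sets, 8.85 to 11.05.

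By class, the shares differed. For the large subunit 27 of 33 detected probe sets were highest in replicate 2 (median difference 0.21), for the small subunit 14 of 24 (0.12), for the outer membrane translocase 3 of 5 (0.09) and for the inner membrane class 18 of 24 (0.24). For the carriers it was 15 of 37 (0.06), near the share of all probe sets, and for mitochondrial DNA upkeep 5 of 10 (0.02). The smallest classes gave 1 of 2 for membrane fusion (0.39) and 2 of 2 for clpp (0.20). These shifts come from 1 array for each pool, members of the set share those arrays, and no test of a difference between single arrays was possible. The labels give for replicate 2 the fewest larvae, 7, and a mean body weight of 0.59 g, against 0.55 g in replicate 1 and 0.48 g in replicate 3. By gene, muscle markers had a median difference of 0.79 between replicate 2 and the mean of the other arrays, which include the low replicate 3. Between replicates 2 and 1 alone their median difference was 0.04, higher in replicate 2 for 7 of 11 genes. Against the mean of the other arrays, the median difference of replicate 2 was -0.06 for inner ear markers and -0.25 for red cell markers. It was 0.19 for the detected pigment cell markers and -0.001 for cartilage markers. Whether any of these differences had a part in the shift was not tested.

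**Figure D4:**
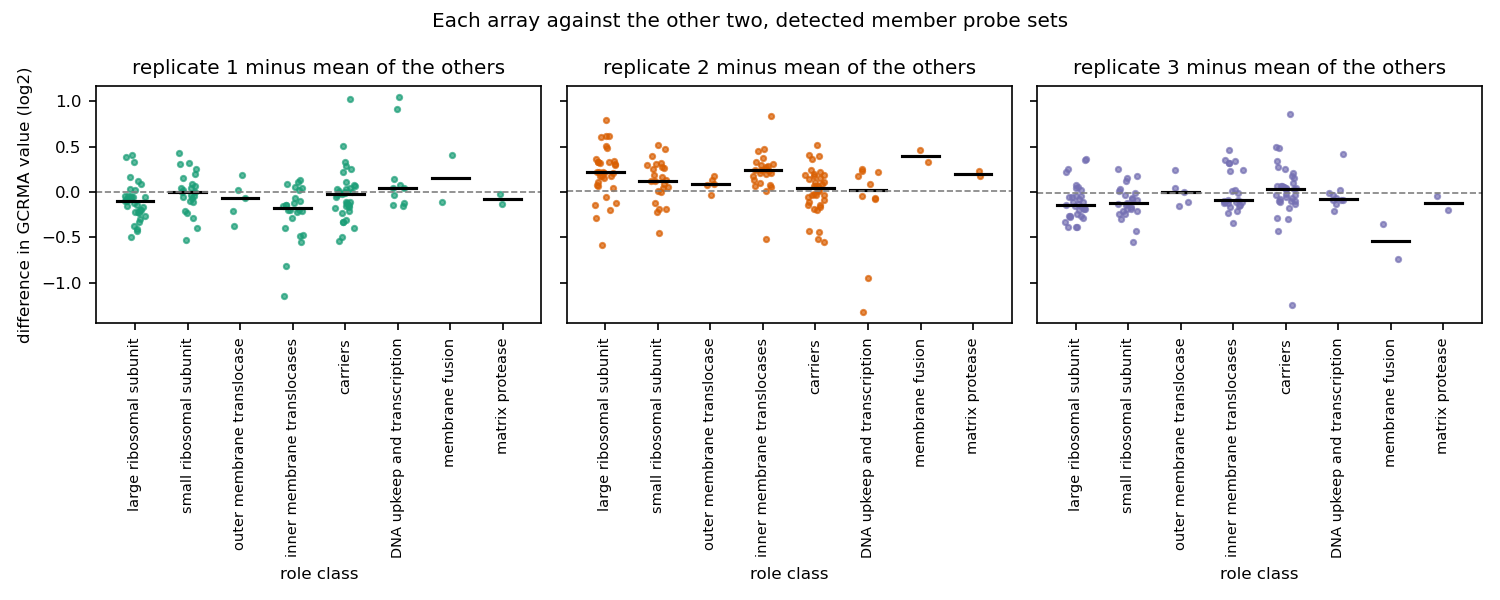
Difference of each array from the mean of the other arrays (log2 GCRMA, vertical axis) for detected member probe sets by role class (horizontal axis), with a dot for each probe set except that of slc25a4, a black bar for the class median and a dashed line for the median of all detected frog probe sets. In replicate 2 the ribosomal and translocase dots lie mostly above the dashed line, with class medians of 0.09 to 0.24.

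Other genes of the same pathways were detected in similar proportion. Of the listed factors of mitochondrial translation and its RNAs, 7 of 8 with a probe set were detected, among them the elongation factor gene gfm1 at 9.72 ± 0.05 (SD, n = 3), while mtg2, a GTPase of ribosome assembly, was at 2.23. Of the genes of import, sorting and folding, 18 of 19 were detected, with the import motor gene hspa9 at 12.17 ± 0.25 and both subunits of the processing peptidase, pmpca and pmpcb, at 11.09 ± 0.17 and 11.15 ± 0.19, while mtx3 was at 2.17. For DNA and RNA upkeep the count was 8 of 8, for quality control and dynamics 12 of 12, and for the outer membrane channels vdac1, vdac2 and vdac3 it was 3 of 3, at 13.02 to 14.09. Regulators of nuclear genes for mitochondrial proteins were detected for 5 of 5 genes, among them nrf1 at 11.22 ± 0.14, gabpa at 9.78 ± 0.31 and esrra at 11.70 ± 0.20. Together 53 of the 55 listed genes with a probe set were detected, beside 79.9% of all genes with a single symbol. All 53 were above 4 in limma's test, which adds little, because of 7383 genes detected on the whole array 7270 were above 4 as well. Replicate 2 was highest for 24 of 32 detected probe sets of the import list (median difference 0.22), 8 of 12 of DNA and RNA upkeep (0.22), 5 of 9 of the translation list (0.15), 13 of 24 of quality control and dynamics (0.13), 3 of 4 of the channels (0.09) and 3 of 9 of the regulators (0.01). Among all detected frog probe sets the share was 36.5% (0.01). By gene, with the highest probe set of each, the regulators gave 3 of 5 (0.15).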

How the data were processed

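Inner ear RNA of 3 larval pools was measured on 3 GeneChip X. laevis Genome 2.0 arrays. The deposited values are log2 intensities. The authors obtained them with GCRMA, which corrects background, puts the arrays on a common scale and summarizes the probes of each set; its software is not given in the sources used here. Because GCRMA compresses weak signal to a floor near 2, values there have no order. With so few arrays, means have limited precision.

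Of 32635 probe sets, 160 controls and reporters were left out. The platform annotation gives 15495 frog probe sets 1 symbol, 279 several and 16701 none. Of the 151 member probe sets 150 were found by gene ID in RefSeq v10.1, none with another symbol. Of the members 12 probe sets end in _s_at or _x_at and can bind several transcripts. Detection was a mean of 4 or higher. A mean above 4 was tested in R 4.3.3 using limma 3.58.1 (one-sided, mean-variance trend, Benjamini-Hochberg over all frog probe sets), a step tested on simulated data. Other steps used Python 3.11.15 with pandas 2.3.3.

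Named were the 3 highest and 3 lowest genes of each class (all genes of small classes), genes not detected, not called or with copies on opposite sides of 4, the 5 with the largest SD, and listed disease genes. Others were chosen after their values were seen. Members and lists were chosen with earlier results of these data known. No sequence table was used, so planned promoter and protein features were not computed. The alternatives changed the threshold, summary, normalization, probe sets, spread and arrays.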

Additional observations from a re-analysis of the deposited data

How the results depend on the processing

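Counts of detected and called members stayed within 1.5 times the reported ones under every alternative. This margin is wide, since its upper bound lies above the 98 genes and 151 probe sets of the set, so only a large fall could break it. Detected genes ranged from 86 (lowest probe set of each gene) to 95 (threshold of 3), and each array left out gave 93. Genes above 4 in limma's test, 92 as reported, ranged from 76 with Holm adjustment to 94. Member probe sets above 4 in the test fell from 136 to 106 with Holm adjustment. The median gene value of 10.46 moved by more than its spread between arrays to 10.28 with the lowest array, to 9.90 with the mean over probe sets and to 9.42 with the lowest probe set. Calls turned for mfn1 (4.86) and slc25a32 (4.82) at thresholds of 5 and 6, for mrpl52 (5.46) at 6, and for slc25a32 (3.44) with the mean over its probe sets. With the lowest probe set they turned for mfn1 (3.29), mrpl41 (1.86), mrps16 (2.40), slc25a1 (2.35), slc25a3 (2.34), slc25a32 (2.06) and tfb1m (2.10). Without replicate 2, mfn1 had an adjusted p of 0.0588 in limma's test, and slc25a4 passed it with centred arrays (adjusted p = 0.0348) or a threshold of 3 (0.0319). Of 1566 gene values under alternatives, 1456 kept their call and direction or moved by less than 1 SD. In alternatives added after the data had been seen, probe sets highest in replicate 2 numbered 85 with quantile normalization and 87 with centred arrays. The deposited values were already on a common scale, with array medians of 7.51, 7.52 and 7.55, so both settings could change little. In replicate 2, 96 of 137 were above replicate 3 alone and 98 above replicate 1 alone. These counts were not made over all frog probe sets, so they do not show that the direction is particular to the members. No paired analysis was possible because all arrays belong to 1 group. Weak signal limits calls near the floor.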

Other observations

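The array also holds 14 probe sets whose names begin with Xl2Mitochon, for which the annotation gives no gene. Of these, 10 were detected, with mean GCRMA values of 9.83 to 15.28, and 4 were not, at 2.11 to 2.65. Of the 10, replicate 2 was the highest array for 8, beside 36.5% of all detected frog probe sets. It was also the highest for most of the 4 not detected, such as Xl2Mitochon.10.1.S1_at with 2.13, 2.16 and 2.10, where values have no order.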
